A study of Mus musculus with 24 samples.

Results

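UDP-glucuronosyltransferases (UGTs) and cytosolic sulfotransferases (SULTs) are the conjugating enzymes that make drugs, steroids, bile acids, thyroid hormones and bilirubin water-soluble. UGTs sit in the endoplasmic reticulum and transfer glucuronic acid from UDP-glucuronic acid, while SULTs work in the cytosol and transfer sulfate from 3'-phosphoadenosine-5'-phosphosulfate. The liver is the main organ of both reactions, and its UGT2B and SULT enzymes handle many steroids. Members were the genes whose symbol begins with Ugt1a, Ugt2a, Ugt2b or Ugt3a, or with Sult and a digit. These were 36 of the 18171 genes of the table, 8 of them Ugt1a, 10 Ugt2a or Ugt2b, 2 Ugt3a and 16 Sult genes.

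RNA of whole liver was sequenced from C57BL/6 mice, 12 libraries from animals overexpressing L2 delta13 (L2d13) and 12 from wild-type animals (WT). Sample names also hold a 2 or a 4 that no label explains, and by it the libraries form 4 groups of 6, L2d13 and WT in set 2 and L2d13 and WT in set 4. The labels give no age, sex, promoter or construct for either genotype. Whether each library is a separate animal is not stated, so p-values reflect only how far these samples scatter, and part of that scatter may be technical. Values are FPKM, fragment counts scaled to transcript length and sequencing depth, so genes can be set side by side.

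The labels do not say which gene L2 delta13 comes from. Loxl2, the likeliest reading of the name, lay between 0.83 and 2.26 FPKM in L2d13 livers and between 0.36 and 1.26 FPKM in WT livers. The predicted gene Gm21451 lay between 40.63 and 266.18 FPKM in L2d13 livers and between 0.03 and 1.27 FPKM in WT livers, so that the genotypes did not overlap for it. FPKM hold no read totals, but low genes take evenly stepped values, and the step shows what 1 fragment was worth in FPKM in each library. Relative to the common value it was 0.951 to 1.028 in 18 libraries, 11 L2d13 and 7 WT, and 1.036 to 1.282 in the other 6, 1 L2d13 and 5 WT. The gap between these classes is small, so the border is not sharp. Of the 6, L2d13 replicate 3 and WT replicate 6 belong to set 2 and WT replicates 9 to 12 to set 4, which leaves 2 WT libraries of set 4 among the 18. Results are therefore given for all 24 libraries and for the 18. Of 10 hepatocyte markers such as albumin, all were expressed, with a summed level of 33200 to 63341 FPKM in L2d13 livers and 54563 to 64548 FPKM in WT livers. Of these markers 1 was lower and 2 were higher in L2d13 livers, against 4.86% and 25.9% of all tested genes. Markers of sinusoidal endothelium were higher in L2d13 livers for 6 of 10 genes, with sums of 51.63 to 272.02 FPKM in L2d13 livers and 35.8 to 141.65 FPKM in WT livers. Kupffer cell markers were higher for 3 of 10, with sums of 75.98 to 376.14 FPKM in L2d13 livers and 48.19 to 259.29 FPKM in WT livers, while 25.9% of all tested genes were higher. The lowest hepatocyte sum and the highest endothelial and Kupffer cell sums all came from 1 library of the 6, L2d13 set 2 replicate 3. In the 18 libraries hepatocyte sums were 49616 FPKM or more. Endothelial sums there were 152.13 FPKM or less and Kupffer cell sums 296.27 FPKM or less. Among the 18 libraries 1 of the 10 endothelial and 0 of the 10 Kupffer cell markers were higher, against 14.9% of all genes tested there. Under median-of-ratios scaling these counts were 3 and 0, against 10.7% of all tested genes. Of the 10 hepatocyte markers 3 were lower and 1 was higher there, against 11% and 10.7%. In the 18 libraries 2 were lower and 1 was higher, against 4.76% and 14.9%. With the class of library in the fit 4 were lower and 1 was higher, against 4.36% and 26.5%. In that fit 4 endothelial, 0 Kupffer cell and 6 of 10 stellate cell markers were higher (1 stellate without it). Quantile normalization gave 1 lower and 4 higher hepatocyte markers, against 10.2% and 12.4%. The part of cell makeup in the results below was not tested. In RNA of whole tissue, fewer cells of a type and less RNA per cell cannot be told apart.

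Of the 36 genes, 21 reached 1 FPKM in 6 or more libraries and were tested, and 15 did not. The highest level over all libraries was that of Ugt2b5, with a mean of 417 FPKM, followed by the phenol sulfotransferase Sult1a1 with 294 FPKM and the bile acid sulfotransferase Sult2a8 with 272 FPKM. Ugt2b36 (265 FPKM), Ugt1a6b (230 FPKM), Ugt2b1 (186 FPKM), Ugt1a1 (138 FPKM), Ugt3a2 (119 FPKM) and Ugt2a3 (103 FPKM) completed the 9 genes with a mean above 100 FPKM. The ranges of neighbours in this order overlapped widely. None of the 15 genes below the filter exceeded 2.14 FPKM in any library, and 12 of them never reached 1 FPKM. These 15 were Ugt1a2, Ugt1a7c, Ugt1a10, Ugt2a1, Ugt2a2, Sult2a1, Sult2a2, Sult2a4, Sult2a7, Sult2b1, Sult3a1, Sult3a2, Sult4a1, Sult6b1 and Sult1e1, the oestrogen sulfotransferase. The summed level of all 36 genes averaged 2171 ± 138 FPKM in L2d13 livers and 2552 ± 288 FPKM in WT livers (SD, n = 12 each), and lay below the WT mean of its set in 12 of 12 L2d13 livers. In set 4 WT replicates 9 to 12, at 2213.38 to 2385.25 FPKM, also lay below the WT mean of 2444 FPKM. As a share of the total FPKM of a library the summed level was 0.368 ± 0.027% in L2d13 livers and 0.404 ± 0.072% in WT livers. On that scale 9 of 12 L2d13 livers lay below the WT mean of their set, 6 in set 2 and 3 in set 4, and the medians of set 4 were 0.375% in L2d13 livers and 0.351% in WT livers.

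**Figure D1:**
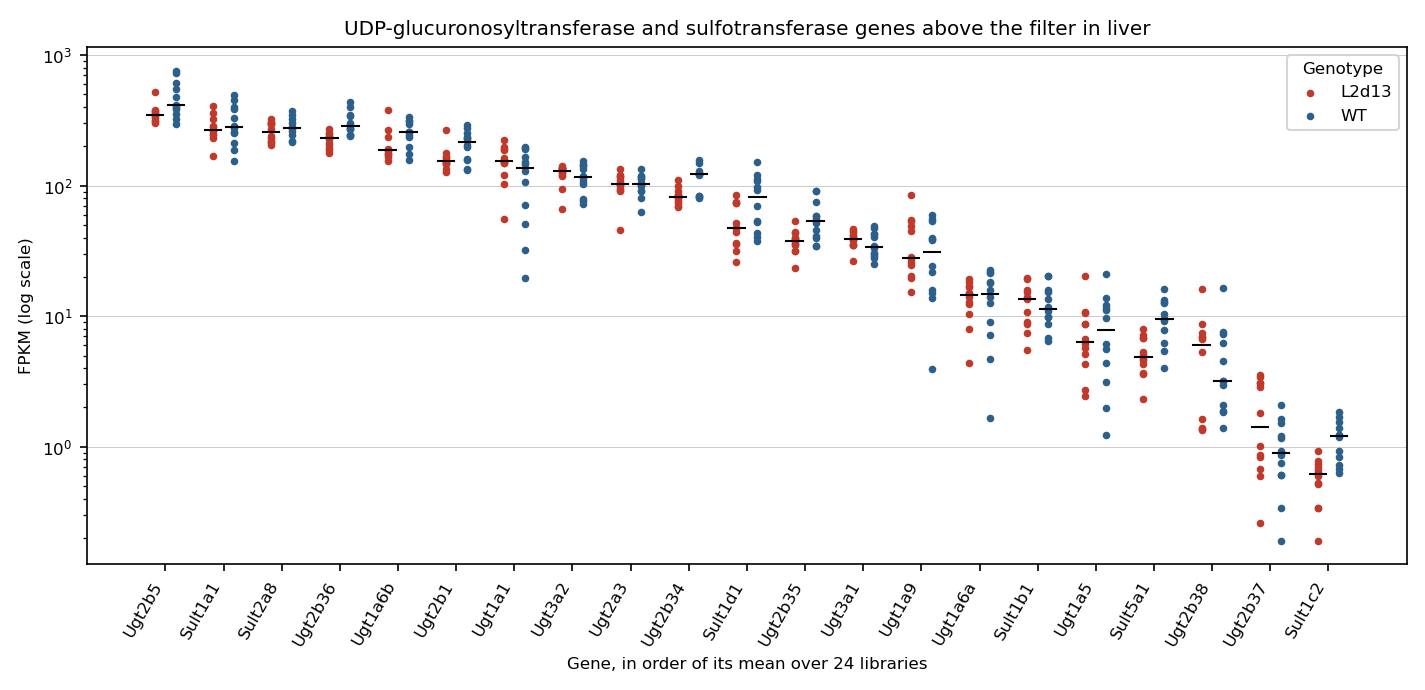
FPKM of the 21 tested genes on a log axis, in order of their mean over 24 libraries. Each point is 1 library, L2d13 left of WT, and black bars are medians; 1 value of 0 (Ugt2b38, L2d13) cannot be drawn on this axis. Levels span from Ugt2b5 (mean 417 FPKM) to Sult1c2 (mean 0.87 FPKM).

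Across both sets, 7 of the 21 tested genes fell in L2d13 livers and none rose, at an adjusted p under 0.05. The genes that fell were 4 of the Ugt2b family, Ugt2b1, Ugt2b34, Ugt2b35 and Ugt2b36, and 3 sulfotransferases, Sult1c2, Sult1d1 and Sult5a1. The test was limma on log2(FPKM + 1) with set as a term and Benjamini-Hochberg adjustment over all 10532 tested genes. Of all those genes 4.86% fell and 25.9% rose, against 33.3% and 0% of the tested UGT and SULT genes. One of the 7, Sult1c2, was tested only because of its WT values, and with the filter at 12 libraries, which leaves it out, 6 of 20 genes fell, against 4.9% of all genes. At an unadjusted p under 0.05, 9 of the 21 were lower and 1 was higher. The share of all genes at an unadjusted p was not counted, here or below, so such counts have no comparison. The median log2 difference was -0.09 over the 21 genes and 0.12 over all tested genes. A median-of-ratios scaling moved the median of all tested genes to 0.002 and that of the 21 to -0.23. It also moved the share of rises among all calls to 49.3%, against 84.2% for the values as deposited. Under it 9 of the 21 genes fell, Sult1c2 again among them, and none rose, against 11% and 10.7% of all tested genes.

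The UGT2B enzymes glucuronidate mainly steroids, bile acids and fatty acids, and their genes lie in a row on mouse chromosome 5 together with the Ugt2a genes and 3 sulfotransferase genes. In the annotation of GRCm38 this row holds 13 of the 36 genes between 86889767 and 87591594. Its first 5 genes are Ugt2b34, Ugt2b1, Ugt2b35, Ugt2b36 and Ugt2b5 in that order, and 4 of these were the Ugt2b genes that fell, with an adjusted p of 0.0526 for the remaining gene, Ugt2b5. The next genes, Ugt2b37, Ugt2a3 and Ugt2b38, were not called. In the transcripts of Ugt2b34, Ugt2b1, Ugt2b35 and Ugt2b36 at most 1.5% of runs of 50 bases also occurred in another gene of the families. For Ugt2b5 this share was 41.7%, for the most part with Ugt2b38. Only exact matches within the families were counted, and whether reads were exchanged between genes was not tested. The 250 bases before the start of the outermost gene of the row and of the most abundant of the 4 genes that fell are given here to show what lies at them (RefSeq, GRCm38.p6, both on the minus strand, with the last base next to the start).
Ugt2b34, chr5:86906938-86907187: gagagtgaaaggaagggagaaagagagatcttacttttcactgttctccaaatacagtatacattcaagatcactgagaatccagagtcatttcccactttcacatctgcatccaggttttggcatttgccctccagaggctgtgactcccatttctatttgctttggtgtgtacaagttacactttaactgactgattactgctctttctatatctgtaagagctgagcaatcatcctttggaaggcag
Ugt2b36, chr5:87092556-87092805: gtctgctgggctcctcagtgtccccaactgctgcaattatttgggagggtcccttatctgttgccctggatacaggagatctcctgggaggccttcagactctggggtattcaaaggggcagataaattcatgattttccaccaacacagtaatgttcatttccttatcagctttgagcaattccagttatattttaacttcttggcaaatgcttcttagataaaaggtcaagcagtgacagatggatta

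Ugt2b36 lay at 177.25, 198.84 and 234.45 FPKM (lowest, median and highest) in L2d13 livers of set 2, against 271.18, 323.38 and 401.38 FPKM in WT livers of set 2. Its values in set 4 lay at 213.78, 244.45 and 271.28 FPKM in L2d13 livers and at 242.2, 259.35 and 436.65 FPKM in WT livers. The groups did not overlap in set 2 and overlapped in set 4, and 12 of 12 L2d13 livers lay below the WT mean of their set. In set 4 WT replicates 9 to 12, at 242.2 to 272.95 FPKM, also lay below the WT mean of 288.68 FPKM. Over both sets Ugt2b36 fell by 0.44 ± 0.10 (SE) on the log2 scale (limma adjusted p = 0.00222). In set 2 alone it fell by 0.66 ± 0.13 (limma adjusted p = 0.00192). In set 4 its log2 difference was -0.21 ± 0.13 (limma adjusted p = 0.283).

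Ugt2b34 lay at 68.39, 79.05 and 90.68 FPKM in L2d13 livers of set 2, against 121.43, 122.56 and 149.76 FPKM in WT livers of set 2, again without overlap. Set 4 values lay at 73.11, 83.83 and 110.7 FPKM in L2d13 livers and at 80.9, 83.67 and 157.25 FPKM in WT livers. The WT livers of set 4 were divided, with 80.9 to 83.77 FPKM in replicates 9 to 12 and 128.46 and 157.25 FPKM in replicates 7 and 8. Replicates 9 to 12 are 4 of the 6 libraries with a high FPKM per fragment. Over both sets Ugt2b34 fell by 0.43 ± 0.11 (limma adjusted p = 0.00595), and in set 2 by 0.69 ± 0.15 (limma adjusted p = 0.00304). In set 4 the log2 difference was -0.17 ± 0.15 (limma adjusted p = 0.454). The difference between the effects of the sets was 0.52 ± 0.21 with an unadjusted p of 0.0185 by limma, which was 0.572 after adjustment.

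Ugt2b35 lay at 31.59, 41.66 and 53.2 FPKM in L2d13 livers of set 2, against 46.04, 58.92 and 90.98 FPKM in WT livers of set 2. For set 4 the values lay at 23.59, 35.28 and 39.99 FPKM in L2d13 livers, against 34.79, 40.49 and 90.37 FPKM in WT livers. The groups overlapped in both sets, while 12 of 12 L2d13 livers lay below the WT mean of their set. In set 4 WT replicates 9 to 12, at 34.79 to 40.91 FPKM, also lay below the WT mean of 48.75 FPKM. Ugt2b35 fell by 0.52 ± 0.14 over both sets (limma adjusted p = 0.00611) and by 0.60 ± 0.20 in set 2 (limma adjusted p = 0.0404). Its log2 difference in set 4 was -0.43 ± 0.20 (limma adjusted p = 0.141). The call in set 2 was lost without any 1 of L2d13 replicates 1, 2, 4, 5 and 6 or of WT replicates 1, 2 and 4 of that set, with an adjusted p of up to 0.0926.

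Ugt2b1, whose rat counterpart glucuronidates bisphenol A, lay at 127.64, 150.36 and 266.81 FPKM in L2d13 livers of set 2, against 133.78, 242.59 and 293.25 FPKM in WT livers of set 2. In set 4 it lay at 133.1, 160.73 and 179.51 FPKM in L2d13 livers, against 132.78, 179.77 and 237.39 FPKM in WT livers. The groups overlapped in both sets. In set 2 the overlap came from 1 high L2d13 library and 1 low WT library, and in set 4 from WT replicates 9 to 11, all 4 of these WT libraries belonging to those with a high FPKM per fragment. The log2 difference of Ugt2b1 was -0.48 ± 0.18 in set 2 (limma adjusted p = 0.0797) and -0.21 ± 0.18 in set 4 (limma adjusted p = 0.474). Ugt2b1 fell by 0.34 ± 0.13 over both sets (limma adjusted p = 0.0484). That call was kept only without 1 of L2d13 set 2 replicate 5, L2d13 set 4 replicate 8, WT set 2 replicate 6 and WT set 4 replicates 9, 10 and 11, and was lost without any 1 of the other 18 libraries, with an adjusted p of up to 0.0879 and log2 differences of -0.41 to -0.30.

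Ugt2b5, the most abundant of the 36 genes, lay at 313.63, 339.17 and 378.36 FPKM in L2d13 livers of set 2, against 383.83, 486.9 and 731.75 FPKM in WT livers of set 2, without overlap. Its values in set 4 lay at 300.87, 352.95 and 526.13 FPKM in L2d13 livers and at 294.98, 374.86 and 762.64 FPKM in WT livers. Its log2 difference was -0.36 ± 0.14 over both sets and just missed the threshold (limma adjusted p = 0.0526). It passed without any 1 of L2d13 set 4 replicate 9, WT set 2 replicates 3, 5 and 6 and WT set 4 replicates 9, 10 and 12, with a lowest adjusted p of 0.0242.

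In the 18 libraries alone the differences of these 5 genes were larger. Of the 20 genes tested there 6 fell (30%) and none rose, against 4.76% and 14.9% of all 10320 tested genes, and the 6 were Ugt2b1, Ugt2b5, Ugt2b34, Ugt2b35, Ugt2b36 and Sult5a1. Ugt2b34 fell by 0.68 ± 0.09 (limma adjusted p = 6.09e-05), with 68.39 to 110.7 FPKM in L2d13 livers and 121.43 to 157.25 FPKM in WT livers, and the genotypes did not overlap. Ugt2b35 fell by 0.85 ± 0.13 (limma adjusted p = 0.000271), with 23.59 to 44.01 FPKM in L2d13 livers and 51.56 to 90.98 FPKM in WT livers, also without overlap. Ugt2b36 fell by 0.61 ± 0.10 (limma adjusted p = 0.000322), with ranges of 177.25 to 271.28 FPKM in L2d13 livers and 271.18 to 436.65 FPKM in WT livers that met at their ends. Ugt2b5 fell by 0.65 ± 0.13 (limma adjusted p = 0.00224) and Ugt2b1 by 0.58 ± 0.12 (limma adjusted p = 0.00211), both with overlap. In set 4 of these 18 libraries, where WT has 2 libraries, Ugt2b34 had a log2 difference of -0.69 ± 0.15 (limma adjusted p = 0.0123) and Ugt2b35 one of -0.999 ± 0.22 (limma adjusted p = 0.0143), and these were the 2 of 20 genes that fell there, against 2.86% of all genes. When the class was added to the fit of all 24, these 5 Ugt2b genes had log2 differences of -0.64 to -0.51 and all fell, among 8 of 21 genes that did so against 4.36% of all genes. Sult1c2, tested only because of its WT values, was 1 of the 8.

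**Figure D2:**
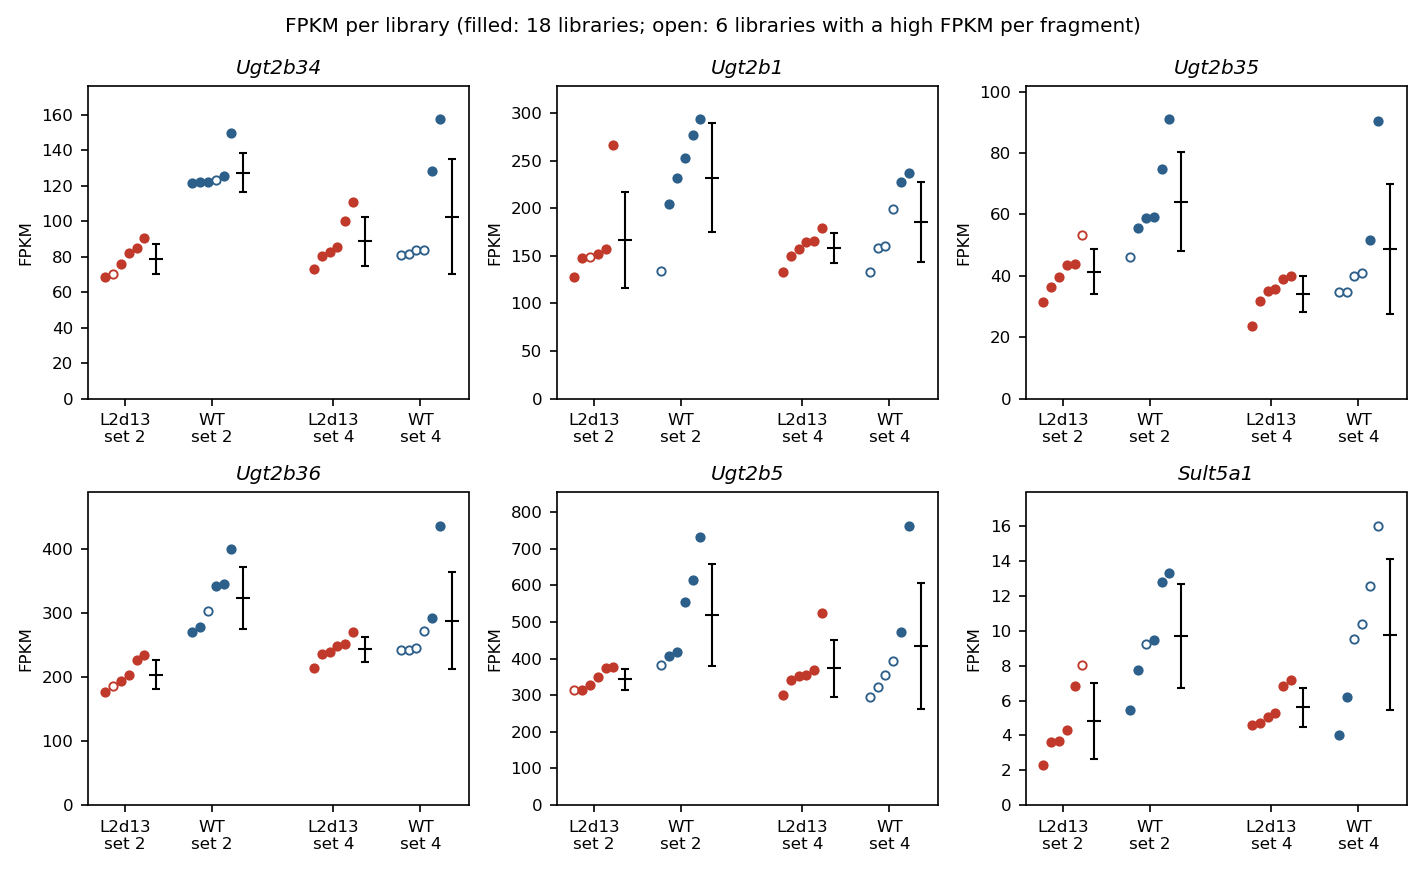
FPKM in each library of the first 5 Ugt2b genes of the row on chromosome 5 and of Sult5a1, by genotype and set, with L2d13 left of WT. Filled points are the 18 libraries near the common FPKM per fragment, open points the other 6, and black bars the mean ± SD of each group of 6. Among filled points, Ugt2b34 reached 110.7 FPKM at most in L2d13 livers and 121.43 FPKM at least in WT livers.

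The tested Ugt genes further along the row, Ugt2b37, Ugt2a3 and Ugt2b38, were not called. Ugt2a3, whose human counterpart conjugates bile acids, averaged 103 ± 22.0 FPKM in L2d13 livers and 102 ± 19.2 FPKM in WT livers (SD, n = 12 each), and its log2 difference was -0.002. With the class in the fit it fell by 0.23 (limma adjusted p = 0.0252). Ugt2b37 was low, with 1.8 ± 1.3 FPKM in L2d13 livers and 1.0 ± 0.6 FPKM in WT livers, and had a log2 difference of 0.42 ± 0.19 (limma adjusted p = 0.0914). It rose past the threshold without L2d13 set 4 replicate 11 or without WT set 4 replicate 8 (lowest adjusted p 0.0455). Ugt2b38 ran from 0 to 16.3 FPKM in L2d13 livers of set 2 and from 1.83 to 16.35 FPKM in WT livers of set 2, and its log2 difference was -0.04 ± 0.40. The Ugt3a genes encode UGTs that in humans take other sugars than glucuronic acid. Ugt3a2 averaged 123 ± 22.1 FPKM in L2d13 livers and 116 ± 29.1 FPKM in WT livers, and Ugt3a1 39.0 ± 5.5 FPKM in L2d13 livers and 36.0 ± 7.9 FPKM in WT livers. The log2 difference was 0.10 ± 0.14 for Ugt3a2 and 0.13 ± 0.11 for Ugt3a1, and among the 18 libraries it was -0.07 for Ugt3a2 and 0 for Ugt3a1, with none of these called.

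The Ugt1a genes are 1 locus with many first exons. Each encodes its own substrate-binding part in its first exon and joins it to the same exons 2 to 5, which encode the part that binds UDP-glucuronic acid. On chromosome 1 of GRCm38 the shared exons lie at 88215044-88215175, 88215795-88215882, 88216138-88216357 and 88218127-88218997, and hold 1311 bases in all. The own first exons of the 9 annotated genes hold 879 to 954 bases. In the longest coding transcript of each Ugt1a gene of the table, 58.2% to 100% of the runs of 50 bases also occurred in another gene of the families. The share was 100% for Ugt1a6a and 80.7% for Ugt1a6b, both with Ugt1a7c. Exons 2 to 5 hold only 57.9% and 58.3% of the 5-exon transcripts of these 2 genes, so more than the shared exons recurred. The junctions of the 5 tested genes are given to show where the own and the shared parts meet. They hold the last 30 bases of the own first exon in lower case and the first 20 bases of the shared exon 2 in capitals (GENCODE M21, GRCm38, plus strand).
Ugt1a1, chr1:88212842-88212871: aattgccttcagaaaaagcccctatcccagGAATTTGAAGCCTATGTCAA
Ugt1a5, chr1:88166874-88166903: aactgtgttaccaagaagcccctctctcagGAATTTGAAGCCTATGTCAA
Ugt1a6a, chr1:88139302-88139331: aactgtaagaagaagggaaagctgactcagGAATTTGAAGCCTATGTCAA
Ugt1a6b, chr1:88107770-88107799: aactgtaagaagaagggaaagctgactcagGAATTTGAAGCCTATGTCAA
Ugt1a9, chr1:88071649-88071678: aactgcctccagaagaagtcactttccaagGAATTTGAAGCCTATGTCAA
The intervals are those of the part in lower case. Ugt1a6a and Ugt1a6b have the same 30 bases there, as have Ugt1a5 and Ugt1a2, which leaves 7 distinct ends among the 9 genes. A fragment from the capitals onward fits all of them, so single Ugt1a values are uncertain and their sum is given first.

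The summed Ugt1a level lay at 408, 448.0 and 477.12 FPKM (lowest, median and highest) in L2d13 livers of set 2, against 361.88, 444.63 and 499.3 FPKM in WT livers of set 2. Set 4 values lay at 348.23, 393.98 and 439.21 FPKM in L2d13 livers and at 341.87, 412.13 and 488.22 FPKM in WT livers. Over both sets it averaged 421 ± 39.5 FPKM in L2d13 livers and 430 ± 52.8 FPKM in WT livers (SD, n = 12 each), a log2 difference of -0.03, which is smaller than the spread between libraries. Among the 18 libraries this difference was -0.14, with 417 ± 39.6 FPKM in L2d13 livers (SD, n = 11) and 466 ± 25.7 FPKM in WT livers (SD, n = 7). The ranges there were 348.23 to 477.12 FPKM in L2d13 livers and 442.67 to 499.3 FPKM in WT livers, with overlap.

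Ugt1a1, the bilirubin-conjugating enzyme, lay at 55.07, 171.71 and 224.72 FPKM in L2d13 livers of set 2, against 19.76, 149.65 and 198.55 FPKM in WT livers of set 2. For set 4 the values lay at 102.34, 152.86 and 186.84 FPKM in L2d13 livers, against 32.37, 89.2 and 194.78 FPKM in WT livers. The groups overlapped in both sets, and the log2 difference over both sets was 0.55 ± 0.33 (limma adjusted p = 0.205). Among the 18 libraries it was -0.03 ± 0.14 (limma adjusted p = 0.895). Ugt1a6b, one of a pair of genes for the isoform that conjugates planar phenols, averaged 207 ± 62.7 FPKM in L2d13 livers and 254 ± 56.0 FPKM in WT livers. Its log2 difference was -0.31 ± 0.14 (limma adjusted p = 0.0988) over all 24 libraries and -0.23 ± 0.13 (limma adjusted p = 0.25) among the 18. It fell past the threshold without L2d13 set 2 replicate 3 or without WT set 2 replicate 3 (lowest adjusted p 0.0139), and under a median-of-ratios scaling (log2 difference -0.45, limma adjusted p = 0.0112). It also passed under quantile normalization (limma adjusted p = 0.022) and without both of the outlying libraries, L2d13 set 2 replicate 3 and WT set 2 replicate 6 (limma adjusted p = 0.0212). Ugt1a9 averaged 37.5 ± 20.3 FPKM in L2d13 livers and 31.7 ± 18.4 FPKM in WT livers, Ugt1a6a 13.6 ± 4.4 FPKM in L2d13 livers and 13.9 ± 7.0 FPKM in WT livers, and Ugt1a5 7.7 ± 4.8 FPKM in L2d13 livers and 8.5 ± 5.8 FPKM in WT livers. None of these was called, with log2 differences of 0.35, 0.12 and -0.02. Among the 18 libraries their log2 differences were 0.01, -0.35 and -0.27, none called, so that the sign for Ugt1a6a turned with the class.

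The division of the Ugt1a sum among its genes moved with the class of library, and in WT livers so did the sum itself. It was 442.67 to 499.3 FPKM in the WT libraries of the 18 and 341.87 to 426.37 FPKM in the WT libraries of the 6. The 1 L2d13 library of the 6 had 457.31 FPKM, within the range of the other L2d13 libraries. Ugt1a6b made up 35.52% to 62.7% of the sum in the 18 libraries and 60.77% to 92.6% in the other 6. Ugt1a1 made up 23.3% to 47.1% in the 18 and 5.46% to 25.12% in the 6. Within the 18, the share of Ugt1a6b was 45.9 ± 7.0% in L2d13 livers (SD, n = 11) and 48.2 ± 9.8% in WT livers (SD, n = 7), and that of Ugt1a1 was 39.1 ± 7.2% in L2d13 livers and 36.3 ± 6.8% in WT livers, so that both differed by less than the spread between libraries. L2d13 set 4 replicate 11, with the highest FPKM per fragment of the 18, also had the lowest Ugt1a1 share among them (23.3%). The cause of the shift between the classes was not tested.

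**Figure D3:**
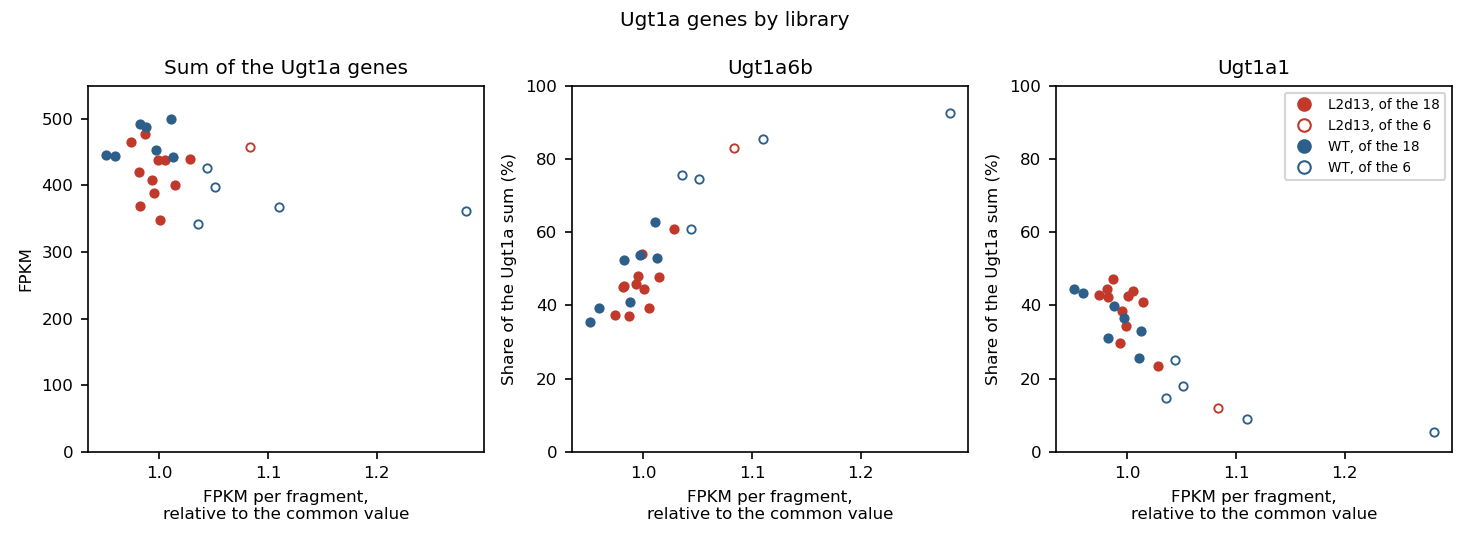
Summed Ugt1a FPKM and the share of the sum held by Ugt1a6b and by Ugt1a1 in each of 24 libraries, against the FPKM per fragment relative to the common value. Filled points are the 18 libraries, open points the other 6, and colours mark L2d13 and WT. In the 18 the sum lies between 348.23 and 499.3 FPKM (median 440.9 FPKM). In the 6 it lies between 341.87 and 457.31 FPKM (median 382.6 FPKM). The Ugt1a6b share is 60.77% or more in the 6 and 62.7% or less in the 18.

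Among the sulfotransferases, Sult5a1, Sult1c2 and Sult1d1 fell over both sets. Sult5a1, on chromosome 8, lay at 2.31, 4.01 and 8.04 FPKM in L2d13 livers of set 2, against 5.46, 9.38 and 13.32 FPKM in WT livers of set 2. In set 4 it lay at 4.62, 5.18 and 7.2 FPKM in L2d13 livers, against 4, 9.96 and 16.02 FPKM in WT livers. The groups overlapped in both sets, and 12 of 12 L2d13 livers lay below the WT mean of their set. It fell by 0.76 ± 0.18 over both sets (limma adjusted p = 0.00287), the lowest log2 difference of the 21 genes, and by 0.62 ± 0.21 among the 18 libraries (limma adjusted p = 0.0494). In set 2 it fell by 0.91 ± 0.26 (limma adjusted p = 0.0209), a call lost without L2d13 replicate 4 or WT replicate 1 of that set (adjusted p up to 0.0553). In set 4 its log2 difference was -0.61 ± 0.26 (limma adjusted p = 0.116), and it passed without WT replicate 8 of that set (limma adjusted p = 0.0191). Among the 18 libraries it fell in set 2 by 1.06 (limma adjusted p = 0.00358) and had a log2 difference of 0.12 ± 0.29 in set 4, so that its sign in set 4 turned with the class, while the difference between the sets had an adjusted p of 0.109 by limma.

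Sult1c2 was barely expressed and passed the filter only through 7 WT libraries, so that it had to differ in order to be tested. It lay at 0.53, 0.69 and 0.93 FPKM in L2d13 livers of set 2, against 0.63, 1.23 and 1.85 FPKM in WT livers of set 2. Its values in set 4 lay at 0.19, 0.43 and 0.7 FPKM in L2d13 livers, against 0.68, 1.06 and 1.68 FPKM in WT livers. All L2d13 values were under 1 FPKM, and the groups overlapped in both sets. The log2 difference was -0.44 ± 0.10 over both sets (limma adjusted p = 0.0014) and -0.55 ± 0.13 in set 4 (limma adjusted p = 0.00973), on a scale where the added 1 understates changes of such low values. It was the only one of the 21 genes called in set 4, and it was below the filter among the 18 libraries.

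Sult1d1, which in mice sulfates dopamine and other catecholamines, lay at 26.11, 35.9 and 52.08 FPKM in L2d13 livers of set 2, against 37.94, 61.5 and 153.11 FPKM in WT livers of set 2. Set 4 values lay at 47.09, 73.94 and 85.42 FPKM in L2d13 livers, against 40.72, 100.47 and 121.52 FPKM in WT livers. The 5 WT libraries of the high class held 5 of the highest 6 WT values, 92.31 to 153.11 FPKM. Over both sets it fell by 0.59 ± 0.21 (limma adjusted p = 0.0371). Among the 18 libraries the log2 difference was -0.18 ± 0.22 (limma adjusted p = 0.593), with 54.2 ± 19.6 FPKM in L2d13 livers (SD, n = 11) and 56.6 ± 20.8 FPKM in WT livers (SD, n = 7). Within the 18 it was -0.58 in set 2 and 0.47 in set 4, neither called. With the class in the fit it was -0.40 (limma adjusted p = 0.148), so the call depended on these libraries. It was also lost without any 1 of L2d13 set 2 replicates 1, 4 and 6, L2d13 set 4 replicates 8 and 9, WT set 2 replicates 5 and 6 and WT set 4 replicates 9 to 12, with an adjusted p of up to 0.0667.

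The abundant sulfotransferases were not called. Sult1a1 lay at 231.11, 263.33 and 283.13 FPKM in L2d13 livers of set 2, against 188.55, 266.8 and 383.46 FPKM in WT livers of set 2. For set 4 the values lay at 169.69, 304.64 and 409.62 FPKM in L2d13 livers and at 155.11, 363.35 and 497.09 FPKM in WT livers. The groups overlapped throughout, with a log2 difference of -0.09 ± 0.16 over both sets (limma adjusted p = 0.699) and 0.27 ± 0.16 among the 18 libraries (limma adjusted p = 0.246), so that its sign turned with the class. The sum of the 5 Sult2a genes averaged 261 ± 44.1 FPKM in L2d13 livers and 285 ± 47.9 FPKM in WT livers (SD, n = 12 each), a log2 difference of -0.12. It lay at 216.52, 237.32 and 325.22 FPKM in L2d13 livers of set 2, against 246.67, 303.31 and 376.68 FPKM in WT livers of set 2, and at 204.28, 299.01 and 306.64 FPKM in L2d13 livers of set 4, against 217.33, 278.77 and 300.62 FPKM in WT livers of set 4. Nearly all of it was Sult2a8, which sulfates bile acids in mouse liver and had a log2 difference of -0.12 ± 0.10 (limma adjusted p = 0.376). Sult1b1, a thyroid hormone sulfotransferase, averaged 12.8 ± 4.5 FPKM in L2d13 livers and 12.5 ± 4.7 FPKM in WT livers.

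**Figure D4:**
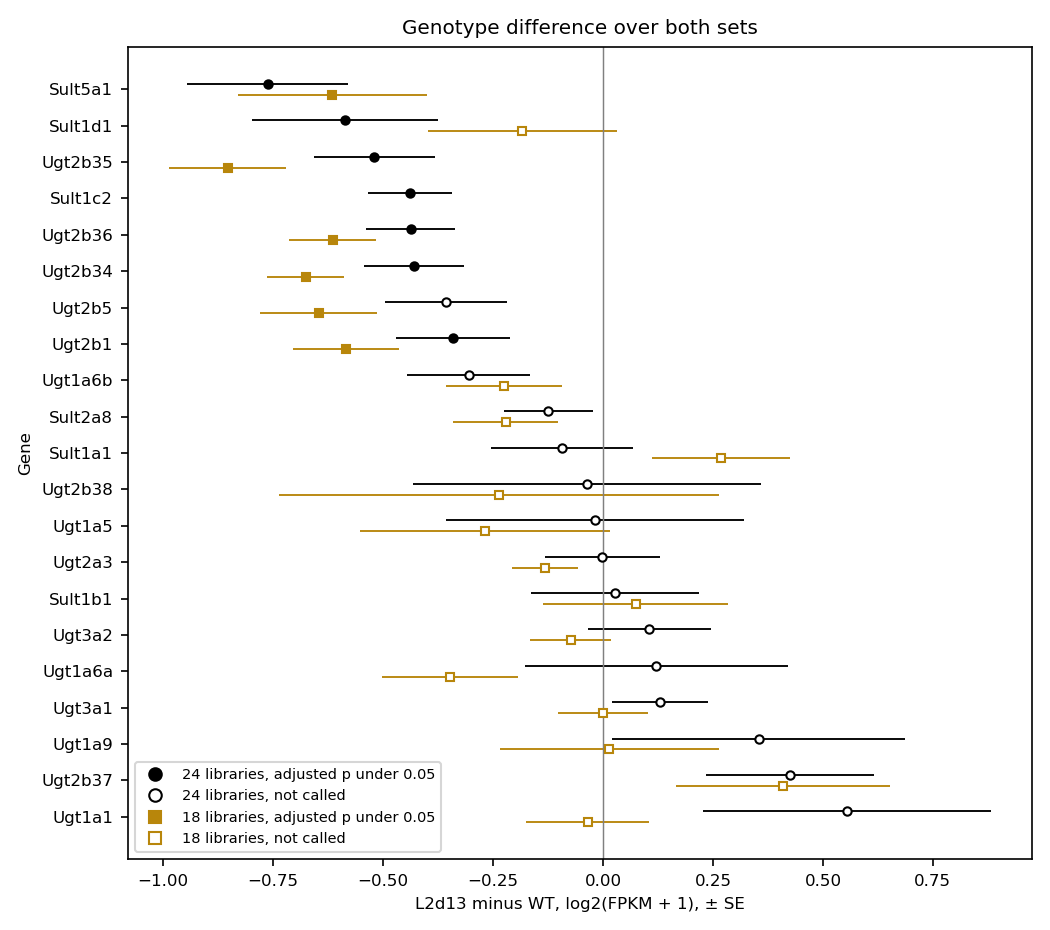
Log2 difference, L2d13 minus WT, of log2(FPKM + 1) over both sets for the 21 tested genes, with its SE, in all 24 libraries (black circles) and in the 18 (gold squares; none for Sult1c2). Filled symbols have an adjusted p under 0.05. The first 5 Ugt2b genes lie between -0.52 and -0.34 in the 24 libraries and between -0.85 and -0.58 in the 18, while Sult1d1 moves to -0.18 and Ugt1a1 to -0.03.

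Set by set, 4 of the 21 genes fell in set 2 (19%) and 1 in set 4 (4.76%), and none rose in either. Of all tested genes 2.13% fell and 13% rose in set 2, and 2.97% fell and 10.3% rose in set 4. The 4 genes of set 2 were Ugt2b34, Ugt2b35, Ugt2b36 and Sult5a1. The gene of set 4 was Sult1c2, tested only because of its WT values, and with the filter at 12 libraries 0 of 20 genes were called there, against 2.99% of all genes that fell. The count in set 2 was 2 without L2d13 replicate 4 of that set and 7 without WT replicate 6, and that in set 4 was 2 without WT replicate 8. None of the 21 genes was called when the genotype effect in set 4 was tested against that in set 2, where limma called 0.152% of all genes and 2 members had an unadjusted p under 0.05. A call in only 1 set therefore does not show that the sets differed. Between the sets, set 4 against set 2, none was called in L2d13 livers, where 6.06% of all genes were called and 4 members had an unadjusted p under 0.05. None was called in WT livers either, where 0.19% of all genes were called and 2 members had an unadjusted p under 0.05. For these unadjusted counts the share of all genes was not counted. Among the 18 libraries Sult1d1 was higher in set 4 than in set 2 of L2d13, and without L2d13 set 4 replicate 9 Ugt2b37 was lower there.

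The genes around the conjugating enzymes were counted in the same fit, in lists chosen with earlier results of these data known. Each count of that fit is to be read beside the 4.86% of all genes that fell and the 25.9% that rose. Under median-of-ratios scaling 11% of all genes fell and 10.7% rose, and under quantile normalization 10.2% and 12.4%. Among the 18 libraries 4.76% fell and 14.9% rose, and with the class in the fit 4.36% and 26.5%. Counts from those fits belong beside these shares. Some genes stand in more than 1 list, among them Ugdh, Por, Nqo1, Gstm1, Gstm3, Gsta1, Gsta2, Slco1a1 and Cyp4a10. Of 11 tested genes for the supply of cofactors, 1 fell and 4 rose, but 3 fell and 1 rose under median-of-ratios scaling and under quantile normalization, and 3 fell and 3 rose among the 18 libraries. The gene that fell was Ugdh, which makes UDP-glucuronic acid, with 48.4 ± 6.4 FPKM in L2d13 livers and 63.7 ± 10.1 FPKM in WT livers (SD, n = 12 each; log2 difference -0.38 ± 0.09, limma adjusted p = 0.00214), and it fell by 0.54 among the 18 libraries. Slc35b1, a nucleotide carrier of the endoplasmic reticulum, averaged 61.6 ± 12.9 FPKM in L2d13 livers and 45.0 ± 7.5 FPKM in WT livers and rose by 0.43 (limma adjusted p = 0.00175). Slc26a1, a sulfate carrier, rose by 0.48 (limma adjusted p = 0.00665) and Bpnt1, which breaks down a by-product of sulfation, by 0.30 (limma adjusted p = 0.0129), but neither was called after median-of-ratios scaling. Papss1 and Papss2, which make the sulfate donor, had log2 differences of 0.09 and 0.06 and were not called.

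Of 5 tested genes on the list for hydrolysis of conjugates, 2 rose, Gusb, which cleaves glucuronides (log2 difference 0.43 ± 0.13, limma adjusted p = 0.0134) and Sumf2 (log2 difference 0.26 ± 0.09, limma adjusted p = 0.0282). Neither was called after median-of-ratios scaling. Of 11 tested transporters of conjugates, 2 fell and 1 rose. Slc22a7, an organic anion transporter, had 4.2 ± 2.4 FPKM in L2d13 livers and 9.2 ± 5.2 FPKM in WT livers and fell by 0.94 (limma adjusted p = 0.00502). Slco1a1 fell by 0.53 (limma adjusted p = 0.0107) and Slco2b1 rose by 0.32 (limma adjusted p = 0.00561), a call lost with median-of-ratios scaling. Abcc2 and Abcc3, which carry glucuronides out of the hepatocyte, had log2 differences of 0.01 and -0.05 and were not called.

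Of 13 tested genes of bilirubin handling, 6 fell and 1 rose. Gsta3, a glutathione transferase of the kind that binds bilirubin in the cell, had 354 ± 49.1 FPKM in L2d13 livers and 675 ± 133 FPKM in WT livers and fell by 0.91 ± 0.11 (limma adjusted p = 2.94e-06). Gsta4, Gsta2 and Gsta1 had log2 differences of -0.79, -0.87 and -1.46 and also fell, with limma adjusted p of 0.000906 or less. Of 24 tested regulators, 5 fell and 7 rose, and with median-of-ratios scaling 10 fell and 3 rose. Nr1i2, the xenobiotic receptor PXR, fell by 0.65 ± 0.13 (limma adjusted p = 0.000464), with 34.1 ± 6.9 FPKM in L2d13 livers and 54.9 ± 15.5 FPKM in WT livers. Bcl6, a repressor with a role in sex-dependent liver transcription, fell by 1.59 ± 0.32 (limma adjusted p = 0.000718). Por, the electron donor of the cytochromes P450, rose by 0.80 ± 0.12 (limma adjusted p = 2.33e-05). These 3 kept their direction and their call under median-of-ratios scaling, under quantile normalization and in the 18 libraries.

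Among target lists of the regulators, 2 of 3 tested genes fell for the aryl hydrocarbon receptor (1 of 3 among the 18 libraries and with the class in the fit), 3 of 12 fell and 2 rose for the receptors CAR and PXR, 8 of 14 fell and 1 rose for the oxidant-response factor NRF2, and 1 of 15 fell and 8 rose for the fatty acid receptor PPARA (5 rose among the 18 libraries). Cyp1a2, a target of the aryl hydrocarbon receptor, had 197 ± 45.1 FPKM in L2d13 livers and 419 ± 114 FPKM in WT livers (limma adjusted p = 4.31e-06). Gclc, which makes glutathione's precursor, had 41.0 ± 8.1 FPKM in L2d13 livers and 93.9 ± 36.4 FPKM in WT livers (limma adjusted p = 1.59e-05). Cyp4a10, a fatty acid hydroxylase under PPARA, ran from 1454.25 to 3002.17 FPKM in L2d13 livers and from 533.46 to 1605.02 FPKM in WT livers and rose (limma adjusted p = 8.09e-06). Of 19 tested other conjugating enzymes 1 fell and 5 rose, and with median-of-ratios scaling 4 fell and 4 rose. The gene that fell, the methyltransferase Inmt, had 152 ± 62.4 FPKM in L2d13 livers and 437 ± 155 FPKM in WT livers. Of 18 tested genes known to be higher in male than in female mouse liver 7 fell and none rose, and of 13 tested genes known to be higher in female liver none fell and 3 rose.

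The promoter windows of RefSeq (250 bases before to 50 bases after the start, GRCm38.p6) held an entry for 30 of the 36 genes, with all 7 genes that fell among them. On either strand, the AHR motif (TNGCGTG) occurred in 2 of the 30 windows, against 5.12% of all 27025 windows. The core of the PXR and CAR site (AGTTCA) occurred in 6 of the 30, among them those of Sult1d1, Ugt2b1 and Ugt1a1, against 14.02%, and the STAT5 motif (TTCNNNGAA) in 2, against 8.47%. The HNF4 motif (CAAAGTCCA) and the NRF2 motif (TGACNNNGC) occurred in none of the 30, against 0.48% and 12.47% of all windows. The windows of Ugt2b34, Ugt2b35, Ugt2b36 and Ugt2b5 held none of these letters. An HNF1 motif had also been planned but was not counted. The 250 bases before the start of Sult1d1 (minus strand) and of Ugt1a1 (plus strand) are given here. Of the genes that fell, Sult1d1 holds the most matches to the counted motifs, and Ugt1a1 is the bilirubin-conjugating gene. Capitals mark the core of the PXR and CAR site in both and the AHR motif, on the other strand, in Sult1d1. A match is only a description of the letters.
Sult1d1, chr5:87569007-87569256: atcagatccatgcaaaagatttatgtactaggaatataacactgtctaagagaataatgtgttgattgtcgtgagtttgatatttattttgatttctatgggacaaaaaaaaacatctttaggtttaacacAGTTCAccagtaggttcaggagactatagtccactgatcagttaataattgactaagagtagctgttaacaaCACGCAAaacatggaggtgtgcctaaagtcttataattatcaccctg
Ugt1a1, chr1:88211709-88211958: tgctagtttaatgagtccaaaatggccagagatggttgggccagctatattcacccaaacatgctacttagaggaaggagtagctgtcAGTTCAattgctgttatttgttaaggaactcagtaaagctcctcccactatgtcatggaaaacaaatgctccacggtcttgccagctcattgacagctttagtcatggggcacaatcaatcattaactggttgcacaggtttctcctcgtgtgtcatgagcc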

How the data were processed

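The data were the authors' deposited FPKM values of 18171 genes in 24 libraries, used unchanged. The submitters' processing notes name HISAT, Bowtie2, RSEM and GRCm38.p5, without versions, and per the labels' protocols the RNA was TRIzol-extracted and read on a BGISEQ-500 instrument. All columns belonged to a sample, no pair of libraries was identical, and read totals are unknown. Symbols came from RefSeq (18040 of the IDs matched, 131 did not), positions from GENCODE M21 and sequences from RefSeq and GENCODE. Family genes with no row, such as Ugt1a8 and Sult1c1, were not analysed here.

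Genes reaching 1 FPKM in 6 or more libraries (10532) were fitted with limma 3.58.1 in R 4.3.3 (eBayes with trend) on log2(FPKM + 1), two-sided, with Benjamini-Hochberg adjustment and a threshold of 0.05. Both-set results came from terms for genotype and set, the others from contrasts of the 4 group means. Tables and plots used Python 3.11.15, pandas 2.3.3 and matplotlib 3.10.9. FPKM per fragment was taken from 4652 values of 372 low genes, with a border between the classes at 1.03. On simulated data over 10532 genes, 81% of 1.5-fold and 98% of 2-fold changes were called over both sets, 17% and 75% in the difference of the effects. The simulated scatter was independent between genes and held no classes of library, so these shares may not hold for the deposited values.

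Genes called over both sets or in 1 set, Ugt1a1, Ugt2b1, Sult1a1 and the sums are given in full, and from each list at most 4 called genes with the smallest p (1 regulator is not reported here), plus uncalled genes named after their values were seen (Ugt2b5, Papss1, Papss2, Abcc2 and Abcc3). Members, lists and tests were chosen with earlier results of these data known. Alternatives were the pseudocount, the filter, the scaling, the eBayes options, the class of library, the replicate number as a block and leaving out single libraries, and, added after seeing the data, leaving out the pair of outlying libraries. Same-numbered libraries did not deviate together: 4 of 12 pairs correlated above 0.1.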

Additional observations from a re-analysis of the deposited data

Results flagged for a closer look

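Within a group of 6 libraries, a single value can stand apart from the others by more than Dixon's critical value. For independent and normally distributed values about 1 in 20 groups would be flagged. Here FPKM were used untransformed and several flags fell in the same library, so that rate gives no comparison. A value stood apart in 14 of 92 groups of values looked at (21 genes and 2 sums in 4 groups). Among the Ugt1a genes these were the high Ugt1a6b values of 379.65 FPKM in L2d13 set 2 replicate 3 and 267.41 FPKM in L2d13 set 4 replicate 11, the high Ugt1a9 values of 54.78 FPKM in L2d13 set 4 replicate 11 and 59.42 FPKM in WT set 4 replicate 8, and the low Ugt1a9 value of 3.91 FPKM in WT set 2 replicate 6. Among the Ugt2 genes they were Ugt2b1 at 266.81 FPKM in L2d13 set 2 replicate 5, Ugt2b5 at 526.13 FPKM in L2d13 set 4 replicate 9, Ugt2b34 at 149.76 FPKM in WT set 2 replicate 2, and Ugt2b35 at 90.37 FPKM and Ugt2b36 at 436.65 FPKM, both in WT set 4 replicate 8. Ugt2b38 stood apart at 1.39 FPKM in L2d13 set 4 replicate 11 and at 16.35 FPKM in WT set 2 replicate 4. Low values were those of Ugt3a2 at 66.28 FPKM in L2d13 set 2 replicate 3 and Ugt2a3 at 62.93 FPKM in WT set 2 replicate 6. No gene moved in opposite directions in all livers of the sets, and the difference between the effects was called for none of the 21 genes (2 with an unadjusted p under 0.05 by limma).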

How the results depend on the processing

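The count of tested genes that fell over both sets was 7, and 6 to 9 under the alternatives other than leaving out single libraries, where it was 5 to 8; none rose except in 2 of those, so the range there was 0 to 1. Ugt2b34, Ugt2b35, Ugt2b36 and Sult5a1 were called in all of these fits, and Sult1c2 in all that tested it. Sult1c2 passes the filter only through its WT values, so its calls are partly set by the filter. Without a filter Ugt1a2, below 1 FPKM throughout, was also called, while Ugt2b1 and Sult1d1 were not. In set 4 the count that fell was 1, but 0 with the filter at 12 libraries, 2 with median-of-ratios scaling, among the 18 libraries and without both outlying libraries, and 3 with the class as a term; without single libraries it was 1 to 2. In set 2 it was 4, but 7 with the class as a term and without both outlying libraries, and 2 to 7 without single libraries. Set 4 against set 2 in L2d13 gave 1 higher gene among the 18 and with the class as a term, and without single libraries 0 to 1 lower genes. Over all genes 2730 rose and 512 fell, which became 1128 and 1162 by median-of-ratios scaling, and 1310 and 1079 by quantile normalization; 1542 rose among the 18 libraries, and 423 to 821 fell without single libraries. The largest Ugt1a row alone, Ugt1a6b, had a log2 difference of -0.31, against -0.03 for the sum. With the replicate number as a block 6 genes fell over both sets, without Ugt2b1, and 4 and 1 in the sets; 1 library correlated best with its own number. The causes of these changes were not tested. With 2 decimals and unknown depth, levels near or under 1 FPKM are coarse.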
